A study of Mus musculus with 28 samples.

Results

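In mouse embryonic fibroblasts (MEFs) labelled WT, 103 of the 37620 listed genes were raised for a limited time on the way to induced pluripotent stem cells (iPSCs). Relative to their own levels from d2 to d6, they were low in fibroblasts and low again in iPSCs. The same genes were followed in cells labelled K36M, a form of histone H3 in which methionine replaces a lysine of the tail. They were chosen by measured values. The level of a gene was its read count divided by the total of its library and scaled by 1e6 (CPM), averaged over the 2 libraries of a group. A gene was kept if its lowest mean at WT d2, d4 and d6 was at least 5 CPM and, with 0.5 CPM added to both sides, at least 4 times its highest mean in WT d0, in WT MEFs without OKSM (noOKSM) and in WT iPSCs. In WT 9972 genes met the CPM minimum, and 103 of them met the fold limit as well. The rise and fall in those WT groups are the way the genes were picked, so they are described without a test. Tests are given only for WT d8 and the K36M libraries, which the choice did not use.

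OKSM stands for Oct4, Klf4, Sox2 and Myc, the transcription factors that turn a fibroblast into a pluripotent cell. On the way the fibroblast programme is lost, cells take on epithelial features, and many pluripotency genes come on late. Genes of other lineages, such as those of stratified epithelium or nerve cells, are known to be switched on for a time in such intermediates. Lysine 36 of histone H3 carries methyl marks over transcribed genes, and a methionine in its place is known to block the enzymes that add them.

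Poly(A) RNA was sequenced in 28 libraries, 2 for each of 14 groups. Both genotypes were taken as MEFs at d0, as MEFs that got no OKSM, as OKSM-treated cells after 2, 4, 6 and 8 days (d2, d4, d6, d8) and as iPSCs that had been passaged. MEFs grew in DMEM with fetal bovine serum, cells under OKSM in a medium named AGi and iPSCs in one named S/L. For d0, MEFs without OKSM and iPSCs the group and the medium therefore cannot be told apart, whereas d2 to d8 share a medium. The library names of the WT groups carry H3_3 where those of the other genotype carry K36M. The labels do not say what H3_3 stands for or how the mutant histone was expressed. Library names of the noOKSM groups carry another prefix than the rest. Library totals ran from 17507521 counts (K36M iPSC replicate 1) to 35622279 counts (WT noOKSM replicate 1). The libraries of K36M d6 lay farthest apart: the median absolute log2 difference between replicates over the 103 genes was 0.45 there and at most 0.22 in any other group. Nothing in the labels says whether replicates came from separate cultures. The p-values therefore rest on the variation within these pairs of libraries, and that variation may be technical. In bulk RNA, fewer cells that use a gene and less RNA per cell cannot be told apart.

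By function, as assigned here once the genes were known, 9 of the 103 were enzymes of small-molecule metabolism. Aldh3a1 and Adh7 oxidise aldehydes and alcohols, Akr1c18 and Akr1c14 are steroid dehydrogenases, Ugt1a6a and Mgst1 conjugate foreign compounds, G6pdx opens the pentose phosphate pathway, Ddc makes dopamine and serotonin from their precursors, and Car13 is a carbonic anhydrase. Epithelial junction, surface and cytoskeleton genes numbered 13: Sprr2b, Krt13, Dsc2, Perp, Podxl, Lgals3, Cxadr, Anxa8, Pllp, Avil, Exph5, Cd109 and Btn1a1. Neuronal structure, adhesion and secretion genes numbered 11: Nefm, Syt1, Snap91, Scg5, Gpm6b, Gprin3, Chl1, Pcdh17, Unc5d, Ctnnd2 and Epha7. Matrix and secreted proteins numbered 12: Lama4, Fras1, Glt25d2, Adamts7, Adamts20, Mmp28, Prss35, Igfbp3, Sost, Fgfbp1, C1qtnf1 and Il33. A further 12 were grouped as signalling: the G protein regulators Rgs2, Rgs8 and Rgs20, Ramp2, a membrane partner of the calcitonin receptor-like receptor that was counted here, and Mras, Rapgef4, Dusp14, Cdc14a, Stk32a, Elmod1, Tbc1d30 and Frmd3. Channels and transporters numbered 10: Ano1, Nalcn, Kcnk13, Kcnq5, Gabra2, Slc13a5, Slc22a4, Slc40a1, Slco5a1 and Mfsd6. Transcription and chromatin genes numbered 11: Mef2c, Sp9, Bcl11a, Cebpd, Plagl1, Mllt3, Pou6f1, Zfp536, Zfp711, Cxxc4 and Asxl3. Receptors and ligand modulators numbered 4 (Tek, Il6ra, Dlk2, Shisa3), lipid and retinoid handlers 5 (Osbp2, Osbpl3, Pitpnm3, St3gal6, Crabp2), and 16 were put in no group: Tmem35, Ankrd29, Fam84a, Vat1l, 4931408A02Rik, B630019K06Rik, Fam110c, Fam196a, Fam174b, Tmem229b, Gm15070, Prr18, Ociad2, Gm106, Pdzd2 and Mndal. Of the 103, 101 are annotated as protein coding.

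As examples, promoter windows of 3 of the enzyme genes are given below. Each runs from 250 bases before to 50 bases after the RefSeq start on GRCm38.p6, which is a later build than the mm9 of the counts. The 3 do not stand for the other enzyme genes. RefSeq windows were found for 74 of the 103 genes (97 windows). The 3 shown hold a match to the antioxidant response element, TGACNNNGC, or to the AP-1 site, TGANTCA, which are written in capitals. A match on the opposite strand appears as its reverse complement. Both motifs were read on both strands, and a sequence that held both, which is possible since they overlap, would count for each.
Mgst1, chr6:138140277-138140576, plus strand, match on the opposite strand beginning 56 bases before the start: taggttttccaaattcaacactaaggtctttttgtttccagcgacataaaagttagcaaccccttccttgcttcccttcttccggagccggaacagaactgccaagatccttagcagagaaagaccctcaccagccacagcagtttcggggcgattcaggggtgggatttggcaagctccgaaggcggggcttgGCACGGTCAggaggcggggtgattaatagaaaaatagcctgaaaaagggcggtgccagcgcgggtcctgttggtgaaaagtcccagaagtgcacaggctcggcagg
G6pdx, chrX:74428831-74429130, minus strand, match on the opposite strand beginning 57 bases before the start: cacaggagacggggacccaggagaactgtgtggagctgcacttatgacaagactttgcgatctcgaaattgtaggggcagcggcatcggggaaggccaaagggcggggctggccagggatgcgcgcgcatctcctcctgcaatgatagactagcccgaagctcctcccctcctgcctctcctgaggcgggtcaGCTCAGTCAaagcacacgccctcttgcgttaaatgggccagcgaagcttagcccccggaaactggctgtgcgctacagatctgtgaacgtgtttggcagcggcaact
Adh7, chr3:138217523-138217822, plus strand, match beginning 25 bases before the start: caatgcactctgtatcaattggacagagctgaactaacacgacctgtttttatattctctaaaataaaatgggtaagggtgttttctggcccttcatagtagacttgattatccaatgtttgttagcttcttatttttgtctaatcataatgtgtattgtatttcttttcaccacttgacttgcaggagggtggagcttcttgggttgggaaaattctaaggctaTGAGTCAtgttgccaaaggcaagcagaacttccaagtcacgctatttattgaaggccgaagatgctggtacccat
The antioxidant response element was present in 9 of the 97 windows (9.28%) and in 12.4% of all 32851 RefSeq mouse windows of this length. The AP-1 site was present in 10 windows (10.3%) against 7.81% of all, and the dioxin response element core, TGCGTG, in 13 (13.4%) against 8.47%. A match is a description of letters and not a bound site. None of the 3 motifs was present in the single window of Akr1c18 or Tmem35.

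In WT the median level of the 103 genes went from 1.13 and 1.20 CPM at d0 to 26.3 and 29.7 CPM at WT d2, 48.4 and 46.7 CPM at WT d4, 41.7 and 40.6 CPM at d6, 27.9 and 25.7 CPM at d8, and 1.10 and 0.998 CPM in iPSCs. Together they took 1.13% and 1.16% of all counts at WT d4. The stage of the highest WT mean was d2 for 29 genes, d4 for 38, d6 for 28 and d8 for 8. At WT d8, which the choice did not use, 84 of 103 still met both limits, 7 were below the CPM minimum, and 12 were above it but below the fold limit. The fold limit there is read against the same WT d0, noOKSM and iPSC means that chose the genes. From d6 to d8 the WT mean went down in 91 of 103 (46.9% of the 12623 genes with at least 5 CPM in a group), in 86 of them with no overlap between the libraries (30.9% of those genes). WT d6 took part in the choice, so nothing is read from these shares.

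**Figure D1:**
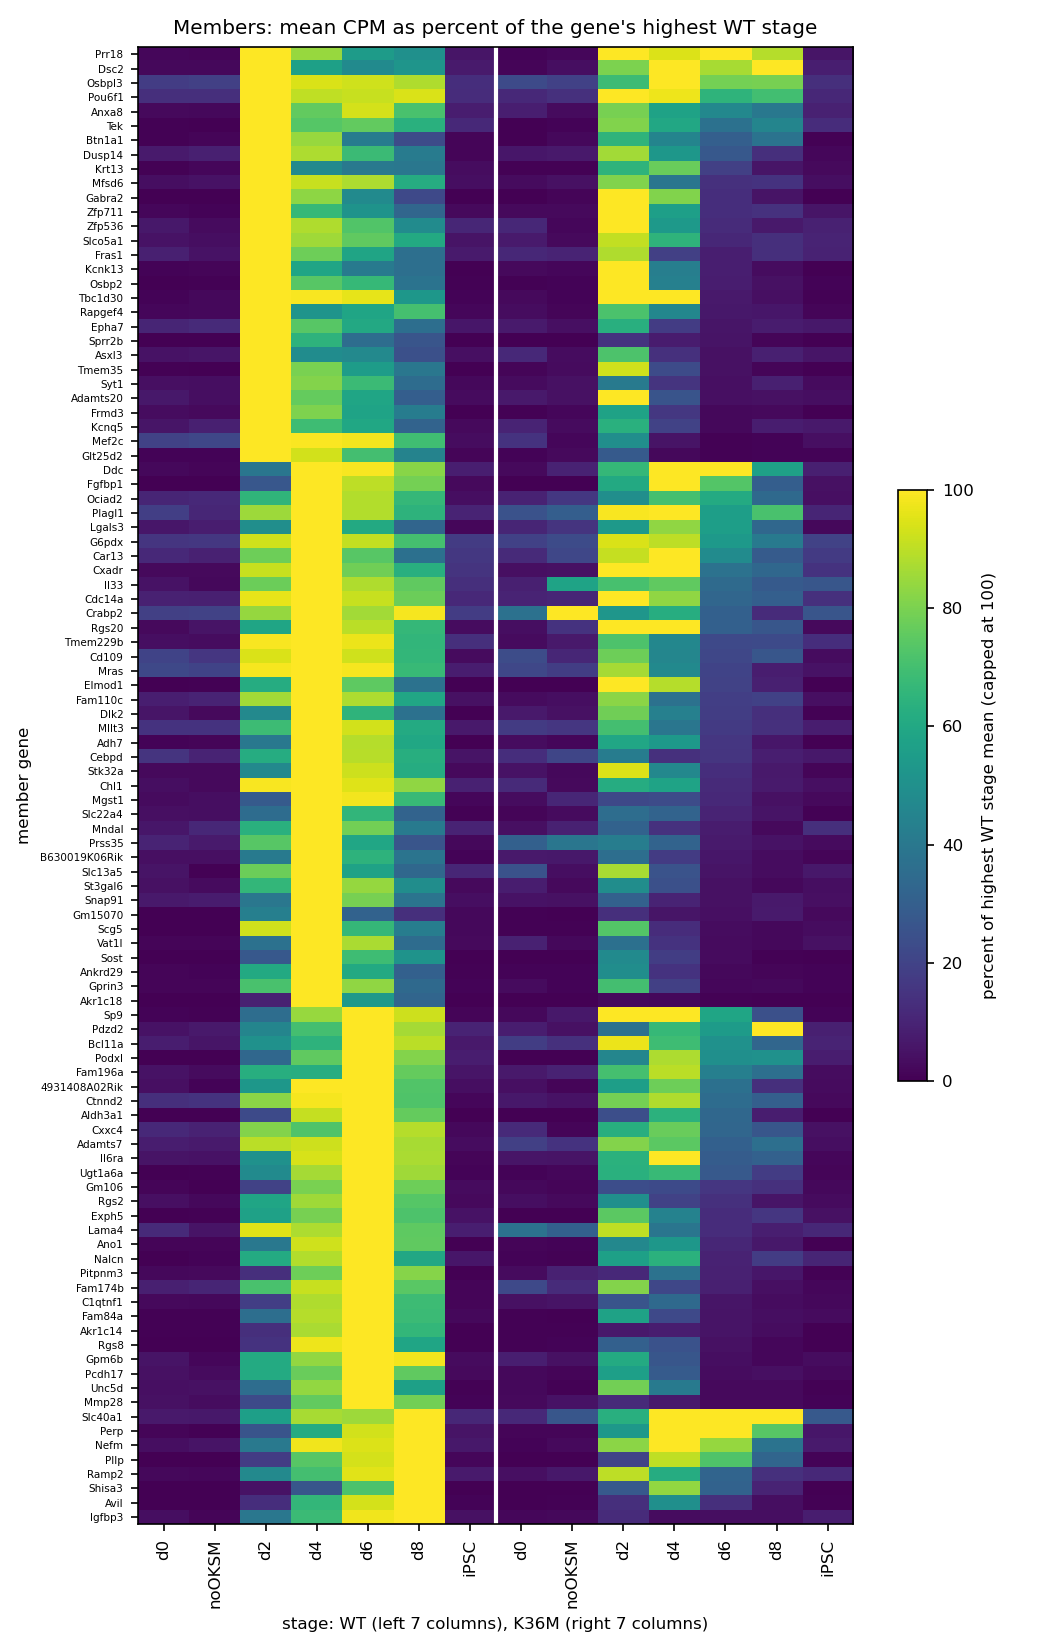
Heat map of the 103 genes, one line per gene, with the 7 WT stages in the left columns and the 7 K36M stages in the right columns. Colour gives the group mean CPM as a percent of the gene's highest WT stage, capped at 100, and genes are ordered by the WT stage of the highest mean. The bright WT block spans d2 to d8, while in K36M most lines are brightest at d2 or d4 and dark by d6.

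Aldh3a1, an aldehyde dehydrogenase, had the largest ratio of the choice, 106. It stood at 0.181 and 0.0854 CPM at WT d0, 162 and 154 at WT d2, 687 and 605 at WT d4, 727 and 686 at WT d6, 562 and 517 at WT d8 and 0.988 and 0.998 in iPSCs. Every WT library from d2 to d8 was thus far above every WT library of the ends. Cd109, a surface protein that binds TGF-beta, began higher, at 275 and 304 CPM, stood at 1338 and 1361 CPM at d2 and ended at 37.2 and 44.6 CPM in iPSCs. Some genes were highest late in WT: Shisa3, an inhibitor of Wnt and FGF receptors, stood at 5.40 and 5.25 CPM at d2 and 114 and 108 CPM at d8. Others were early: Tmem35, later named Tmem35a, was highest at d2 with 339 and 355 CPM and stood at 143 and 133 CPM at d8.

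The fold limit was met most narrowly by Cebpd (4.00), Il33 (4.15) and Crabp2 (4.16). It was missed most narrowly by Myc (3.95), Thsd1 (3.90) and Plcb1 (3.89). Myc is itself a factor of OKSM, and whether its counts include reads from the supplied factor was not tested.

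In K36M the same genes reached a similar median level at d2 and came down earlier. Their median stood at 1.69 and 1.53 CPM at K36M d0, 28.4 and 28.5 CPM at d2, 19.3 and 20.1 CPM at d4, 7.25 and 8.78 CPM at d6, 5.36 and 5.04 CPM at d8 and 1.09 and 1.45 CPM in iPSCs. At d8 they took 0.309% and 0.312% of counts in the K36M libraries and 0.874% and 0.888% in the WT libraries. The stage of the highest K36M mean was d2 for 69 genes, d4 for 29, d8 for 3, d6 for 1 and noOKSM for 1 (Crabp2). It came at an earlier stage than in WT for 63 genes, at the same stage for 35 and at a later stage for 5. Of the 38 genes highest at d4 in WT, 28 were highest at d2 in K36M. The choice asked for high levels through d6 in WT alone, which favours an earlier highest stage and an earlier fall in K36M. The stages were not counted over all genes, and nothing is read from these counts. From d2 to d8, 34 of the 103 went up in both WT libraries and down in both K36M libraries, against 9.96% of the 12623 genes with at least 5 CPM in a group, and nothing is read from this because WT d2 took part in the choice. The limits set for WT were met in K36M by 76 of the 103 at d2 and 63 at d4, but by 28 and 19 at the later stages d6 and d8.

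**Figure D2:**
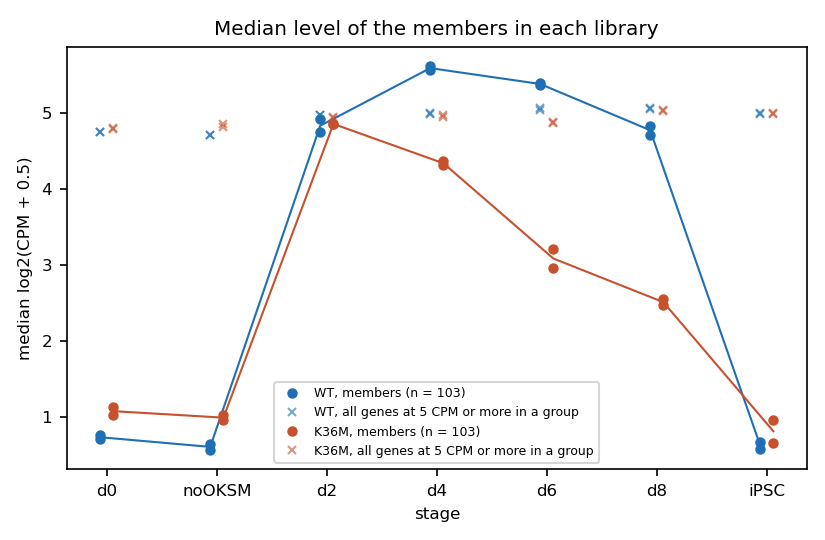
Median log2(CPM + 0.5) of the 103 genes in each library, by stage, with circles for single libraries and lines through the means of the 2 libraries (WT blue, K36M red). Crosses give the median of all genes with at least 5 CPM in a group, which stays near 5, whereas the K36M medians of the 103 genes fall from d2 on and the WT medians stay high to d8.

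The K36M to WT difference of the 103 genes is given by stage without a test, since the WT libraries of every stage but d8 chose them. On the log2(CPM + 0.5) scale the median difference was 0.12 at d0, 0.15 without OKSM, -0.03 at d2 and -0.81 at d4, then -2.42 and -2.14 at d6 and d8, and 0.14 in iPSCs. The median over all genes with at least 5 CPM in a group was between -0.01 and 0.12 at each of these stages. At d2 54 of 103 were lower in K36M and 49 higher, at d4 80 were lower, at d6 98 and at d8 96. The choice was made in WT, which favours lower values in K36M. How much of the difference comes from it was not tested. A matching choice in K36M is given as a description. The same rule applied to K36M libraries kept 43 genes, of which 26 were in the WT set (25.2% of the WT set and 60.5% of the K36M set). These 43 were higher in K36M at d2, by a median of 0.76, and lower at d8, by a median of 1.03 in log2 units, with 30 of 43 lower. The choice in K36M used K36M d2, which favours higher K36M values there. Of the 43, the 26 also in the WT set had a median difference of -1.60 at d8, with 23 lower. The 17 genes that passed in K36M but not in WT, among them the hemidesmosome integrin Itgb4, the neurofilament gene Nefl and the skin secreted proteins Dmkn and Krtdap, had a median difference of 1.74 at d2 and 0.42 at d8.

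**Figure D3:**
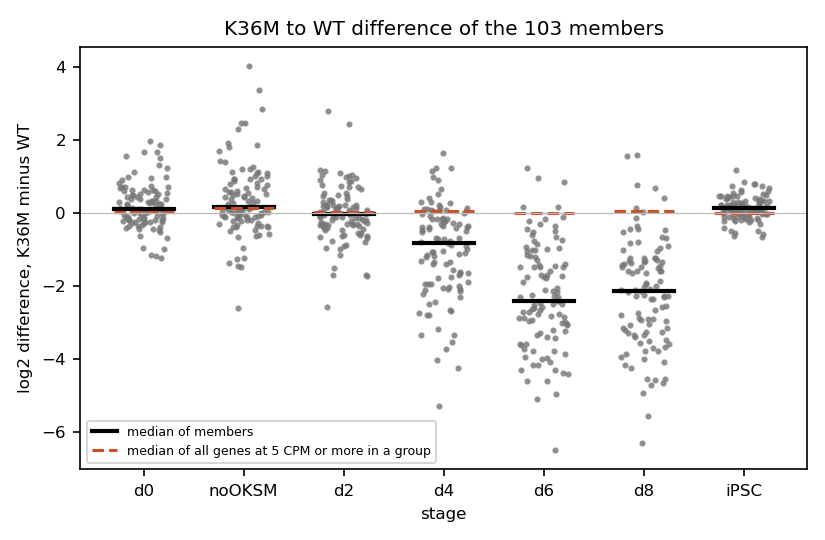
Log2 difference between K36M and WT group means, with 0.5 CPM added, for each of the 103 genes (grey points) at the 7 stages. Thick bars are the medians of the 103 genes and dashed bars the medians of all genes with at least 5 CPM in a group. The points are centred near 0 at d2 and in iPSCs and lie mostly below 0 from d4 to d8.

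The rise at the start was also present in K36M. In edgeR's quasi-likelihood test on all 16932 genes that passed the filter on low counts, with p-values adjusted over all of them by Benjamini-Hochberg and a threshold of 0.05, 101 of 103 were higher at K36M d2 than at K36M d0 (30% of all tested genes were higher). None was lower (31.2% of all tested genes), also at an unadjusted p below 0.05 and by DESeq2. The median log2 fold change was 3.48, against 0.02 over all genes. Aldh3a1 had 1 count in the K36M d0 libraries together and stood at 173 and 164 CPM at K36M d2. Shisa3 and Btn1a1, a butyrophilin, had no count at K36M d0 and stood at 30.4 and 31.9 CPM and 15.3 and 16.5 CPM at d2. Fgfbp1, which releases FGF from the matrix, had 2 counts at K36M d0 and stood at 109 and 101 CPM at d2. For these 4 genes the libraries of d0 and d2 were far apart. No fold is given because the base is so few counts. The genes that did not pass were Prss35, a serine protease homologue (0.17 ± 0.149, edgeR adjusted p = 0.340), and Crabp2, which carries retinoic acid to its receptor (0.20 ± 0.145, edgeR adjusted p = 0.248). Both pass with libraries scaled by their totals alone or when the 4 libraries are fitted by themselves.

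At d4 93 of 103 were still higher than at K36M d0 (36.1% of all tested genes) and 2 were lower (32.8%). Those 2 were Mef2c, a MADS-box transcription factor, at -1.75 ± 0.291 in log2 (edgeR adjusted p = 1.26e-05), and Fam174b, at -0.37 ± 0.116 (edgeR adjusted p = 0.00702). Mef2c stood at 3.46 and 3.23 CPM at K36M d0, 9.55 and 12.7 at d2, 1.37 and 1.10 at d4 and 0.0547 and 0.329 at d8, so that its rise at d2 was followed by levels below the start. The call of Fam174b is lost without K36M d4 replicate 2 or with scaling by totals alone. The 2 become 6 when the 4 libraries are fitted by themselves. Against MEFs without OKSM, 95 were higher at K36M d4 (35.2% of all tested genes) and 3 were lower (34.4%): Crabp2 at -2.65 ± 0.144, the C/EBP family factor Cebpd at -0.83 ± 0.138 and Prss35 at -0.54 ± 0.149 in log2. Crabp2 stood out in that group: it was at 166 and 215 CPM in K36M noOKSM, against 10.6 and 11.9 in WT noOKSM and 20.4 and 22.5 at K36M d0. K36M d4 and K36M noOKSM differ in OKSM, medium and library prefix at once, and these cannot be told apart.

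The early fall can be followed inside K36M. From d2 to d4 58 of 103 fell (17.9% of all tested genes were lower) and 20 rose (20% were higher). The share that rose was near that of all genes. The largest falls were those of Glt25d2, a collagen galactosyltransferase with 12 counts at K36M d4, at -3.67 ± 0.311, Mef2c at -3.19 ± 0.261, the secretory chaperone gene Scg5 at -2.54 ± 0.174 and the Polycomb-related gene Asxl3 at -2.40 ± 0.251 in log2. Scg5 stood at 20.8 and 20.0 CPM at K36M d2 and 3.52 and 3.59 CPM at d4, while the WT libraries stood at 25.5 and 26.0 and 30.5 and 25.1 CPM. The largest rises were those of Pllp (plasmolipin, a membrane protein of myelin and epithelia) at 2.15 ± 0.153, the actin binder Avil at 1.84 ± 0.142, Pitpnm3 at 1.71 ± 0.136 and Shisa3 at 1.56 ± 0.173. By function, 9 of the 12 signalling genes, 8 of 11 neuronal genes, 8 of 12 matrix genes and 8 of 11 transcription genes had fallen by d4, whereas of 9 metabolic enzymes none had fallen, 2 had risen and 7 did not pass. Of the 13 epithelial genes 6 had risen and 5 had fallen.

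By d8 the fall was general. Against K36M d2, 96 of 103 were lower (29.3% of all tested genes) and 5 were higher (33.1%), with a median log2 fold change of -2.44 against 0.04 over all genes. Sost, a secreted Wnt antagonist of bone, stood at 9.07 and 9.46 CPM at K36M d2 and 0.11 and 0.11 CPM at d8, where it rested on 4 counts in all (-6.44 ± 0.318 in log2, edgeR adjusted p = 4.33e-12). Tmem35 went from 326 and 317 CPM at K36M d2 through 81.3 and 78.1 CPM at d4 and 14.5 and 15.8 CPM at d6 to 5.36 and 4.66 at d8, a log2 change of -6.12 ± 0.146 (edgeR adjusted p = 4.19e-19). At WT d8 it was still at 143 and 133 CPM. The Rab GTPase regulator Tbc1d30 changed by -5.98 ± 0.248 and Mef2c by -5.93 ± 0.371 in log2. The 5 that rose were Slc40a1 (2.12 ± 0.149), Pdzd2 (1.51 ± 0.177), Dsc2 (0.87 ± 0.222), Pllp (0.59 ± 0.157) and Perp (0.35 ± 0.131). The call of Perp, a desmosome protein, is lost without any single library of K36M d2 or d8. Podxl and Osbpl3 did not pass.

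Against the starting fibroblasts, 71 of 103 were higher at K36M d6 (41.9% of all tested genes) and 18 were lower (36%). At K36M d8 65 were higher (39.5%) and 19 lower (34%). The 18 become 10 with scaling by totals alone, or when the 4 libraries are fitted by themselves. Mef2c, with 8 counts at d6 and 7 at d8, was at -4.49 ± 0.414 at d6 and -4.49 ± 0.430 at d8, the citrate transporter Slc13a5 at -2.50 ± 0.251 and -3.35 ± 0.289, and Prss35 at -2.40 ± 0.173 and -3.05 ± 0.187 in log2. Above K36M d0 at d8 were 12 of 13 epithelial genes, all 4 receptor genes and 8 of 9 enzymes. Some of the 65 were higher on few counts at K36M d8. Sprr2b had 9 (0.246 CPM), Akr1c18 19 (0.520 CPM), Krt13 31 (0.849 CPM) and Sost 4. Of the 12 matrix genes 5 were above and 4 below the start, and of the 11 transcription genes 5 were above and 5 below.

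The comparison of K36M d8 with WT d8 used 4 libraries outside the choice. The choice still favours lower values in K36M, since it asked for high levels at d2 to d6 in WT alone. Its share in the result was not tested. The 17 genes that passed the rule in K36M only had a median log2 difference of 0.42 at d8, with 10 higher and 7 lower. For the 77 that passed in WT only it was -2.28, with 4 higher and 73 lower. Of the 103 genes 96 were lower in K36M (29% of all tested genes) and 4 were higher (31.6%), and 3 did not pass. The median log2 fold change was -2.50, or 0.177 times the WT level, against 0.04 over all genes. In all 96 the 2 K36M libraries lay below both WT libraries, as they did in 40.8% of the 12623 genes with at least 5 CPM in a group. Leaving out each of the 4 libraries in turn left 93 to 94 lower and 4 higher.

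**Figure D4:**
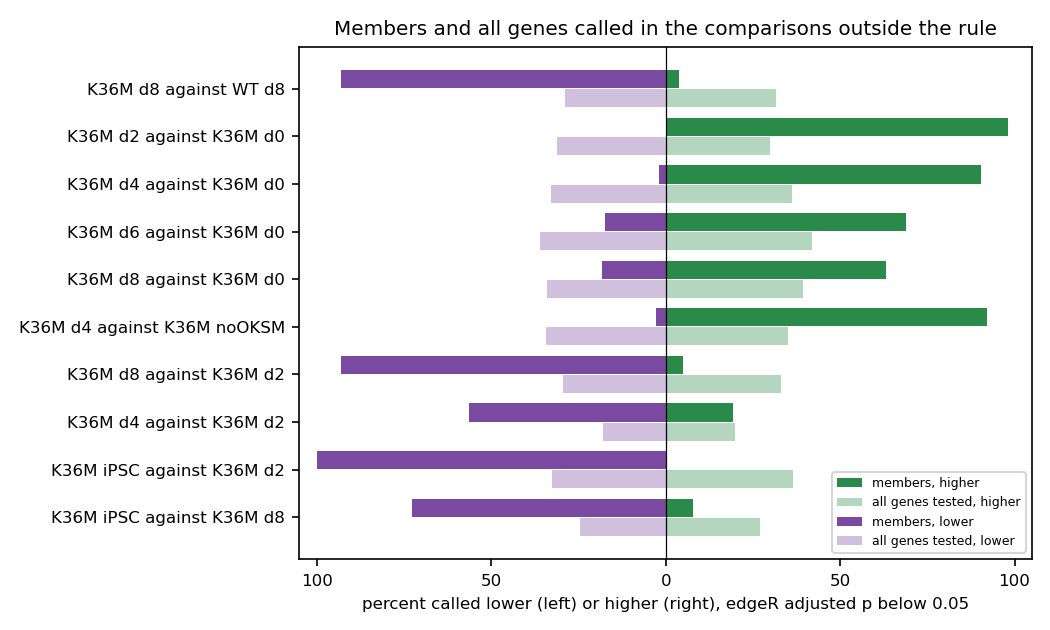
Percent of the 103 genes (dark bars) and of all 16932 tested genes (pale bars) called higher (right, green) or lower (left, purple) in the 10 comparisons of libraries outside the choice, by edgeR at an adjusted p below 0.05. The dark bars pass 90% to the right for K36M d2 and d4 against d0 and for d4 against noOKSM, and to the left for iPSCs against d2, for d8 against d2 and for K36M d8 against WT d8.

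All 9 metabolic enzymes were lower at K36M d8 than at WT d8, with a median log2 fold change of -3.36. Of the whole set 93.2% were lower (29% of all tested genes), so a group that is lower throughout is near the share of the set. Nothing is read from the counts of single functional groups at d8, here and below. Akr1c18, which inactivates progesterone, stood at 22.5 and 21.7 CPM at WT d2, 259 and 230.1 at d4 and 85.6 and 73.2 at d8, and in K36M at 6.62 and 6.04, 5.83 and 5.63 and 0.492 and 0.548 CPM at the same stages. It was the largest change of the set (-7.31 ± 0.236 in log2, edgeR adjusted p = 5.64e-16), and the K36M libraries lay below the WT libraries at d2 and d4 as well. Its neighbour Akr1c14, 42.2 kb away on chromosome 13, was also lower at d8, at 81.1 and 86.7 CPM in WT and 4.92 and 3.56 CPM in K36M. In K36M its mean was 8.61 CPM at d2, 10.4 at d4 and 4.24 at d8, a smaller fall than that of Akr1c18. The 2 genes belong to a family of close copies, so reads may be split between them. Aldh3a1 and Adh7 had another course, since they were at least as high in K36M as in WT at d2. Aldh3a1 stood at 173 and 164 CPM at K36M d2, 460.2 and 445 CPM at d4, 192 and 278 CPM at d6 and 50.8 and 60.0 at d8 (-3.36 ± 0.150 against WT d8, edgeR adjusted p = 1.33e-14). Adh7, which oxidises retinol, stood at 224 and 219 CPM at K36M d2 and 151 and 149.7 CPM at WT d2, but at 20.4 and 25.3 against 224 and 223 CPM at d8 (-3.36 ± 0.205, edgeR adjusted p = 6.12e-12). Of the genes whose promoters are shown above, Mgst1 was lower by more than G6pdx: -3.94 ± 0.145 and -0.86 ± 0.115 in log2. G6pdx stood at 371 and 373 CPM at WT d4 and 341 and 329 CPM at K36M d4, and at 251 and 274 and 146 and 158 CPM at d8. Ugt1a6a shares exons with other Ugt1a genes, and its count is uncertain.

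**Figure D5:**
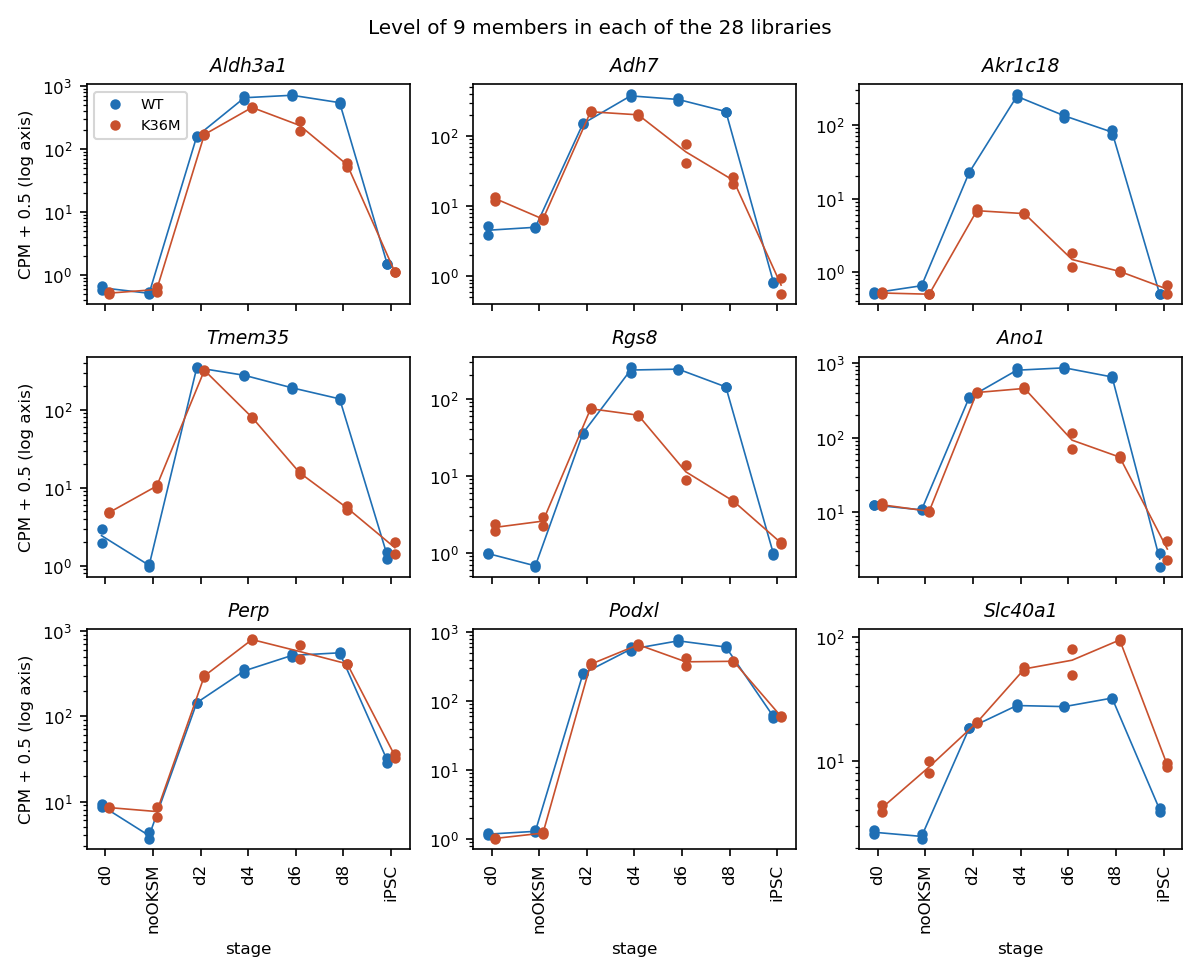
CPM + 0.5 on a log axis for 9 of the genes in each of the 28 libraries (points; WT blue, K36M red), with lines through group means, by stage. Aldh3a1, Adh7, Rgs8, Tmem35 and Ano1 reach similar or higher levels in K36M at d2 and are far lower there by d8, Akr1c18 is lower from d2 on, Perp and Podxl lie closer together at d8 and are lower in K36M there, and Slc40a1 is higher in K36M at d4, d6 and d8.

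All 12 signalling genes were lower at K36M d8, with a median of -3.21, and so were all 11 neuronal genes, with a median of -3.57. Of the whole set 93.2% were lower, and of all tested genes 29%. Rgs8, which speeds the shut-off of G proteins, stood at 34.8 and 35.8 CPM at WT d2 and 142 and 141 CPM at WT d8, but at 72.8 and 74.4 CPM at K36M d2 and 4.05 and 4.33 CPM at K36M d8. It was thus higher in K36M at d2 and lower at d8 (-5.15 ± 0.167 in log2, edgeR adjusted p = 6.46e-17), with no overlap at either stage. Elmod1, which acts on Arl GTPases, stood at 44.3 and 42.8 CPM at WT d2 and 28.4 and 24.6 CPM at WT d8, against 70.9 and 73.1 CPM at K36M d2 and 6.02 and 6.41 CPM at K36M d8. Gpm6b, a membrane glycoprotein of neurons, was at 64.4 and 61.6 CPM in WT and 63.8 and 62.0 CPM in K36M at d2, and at 99.7 and 102 and 1.37 and 1.92 CPM at d8 (-6.01 ± 0.356, edgeR adjusted p = 1.28e-11). The neurofilament gene Nefm differed less, at -1.47 ± 0.119. It stood at 52.7 and 48.7 CPM at K36M d4, above the 27.2 and 26.9 CPM of WT, and at 9.85 and 11.1 CPM at K36M d8, below the 29.0 and 26.3 CPM of WT. Syt1, the calcium sensor of synaptic vesicles, was at 0.930 and 0.493 CPM at K36M d8 and 2.67 and 3.15 CPM at WT d8. Snap91, a clathrin adaptor of synapses, was at 3.39 and 2.57 and 17.2 and 15.6 CPM. Both were lower in K36M with no overlap. The neighbour of Nefm, Nefl, overlaps Nefm in the annotation and passed the rule in K36M only.

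All 12 matrix and secreted genes were lower at K36M d8 (93.2% of the whole set and 29% of all tested genes). Their median was -3.02, with a range from -6.49 (Sost) to -1.33 (Adamts7). Igfbp3, which binds insulin-like growth factors, was at 168 and 170.4 CPM at WT d2 and 431 and 422 CPM at WT d8. In K36M it was at 53.2 and 50.9 CPM at d2 and 15.8 and 15.8 CPM at d8 (-4.83 ± 0.122 in log2, edgeR adjusted p = 1.54e-18), and at 34.1 and 35.5 CPM in K36M iPSCs it was higher than at K36M d8. Osbp2, an oxysterol-binding protein, was at 81.2 and 76.1 CPM in WT and 96.9 and 106 CPM in K36M at d2, and at 30.4 and 29.5 and 3.50 and 3.83 CPM at d8. All 5 lipid and retinoid genes were lower at K36M d8, but the call of Osbpl3 (-0.23 ± 0.0923, edgeR adjusted p = 0.0396) is lost under most alternatives, among them leaving out any of the 4 libraries. All 4 receptor genes were lower. Tek, the angiopoietin receptor of endothelium, was the receptor nearest to WT, at 80.1 and 83.7 CPM in WT and 54.7 and 62.7 CPM in K36M (-0.56 ± 0.154, edgeR adjusted p = 0.00350), and its call is lost without K36M d8 replicate 1. Of the 10 endothelial markers tested, Tek among them, 4 were higher (31.6% of all tested genes) and 3 lower (29%) at K36M d8. These counts are near the shares of all genes.

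Of the 10 channels and transporters 9 were lower at K36M d8 (29% of all tested genes) and 1 was higher (31.6%). Ano1, a calcium-activated chloride channel, stood at 349 and 337 CPM at WT d2 and 620.0 and 672 CPM at WT d8, against 393 and 406 CPM at K36M d2 and 56.1 and 52.3 CPM at K36M d8 (-3.65 ± 0.178 in log2, edgeR adjusted p = 5.54e-14). The exception was Slc40a1, the iron exporter ferroportin. It rose from 20.0 and 19.7 CPM at K36M d2 to 92.4 and 94.3 CPM at K36M d8, while WT stood at 17.9 and 17.8 and 31.2 and 31.8 CPM (1.49 ± 0.142 at d8, edgeR adjusted p = 4.94e-09). Of the 11 transcription and chromatin genes 10 were lower and Plagl1, an imprinted zinc-finger gene, did not pass (0.07 ± 0.104, edgeR adjusted p = 0.600). Mef2c was the lowest of them, at 15.0 and 16.3 CPM in WT and 0.0547 and 0.329 CPM in K36M, where it rested on 7 counts (-6.38 ± 0.353). Sp9 was at 67.5 and 69.4 CPM at K36M d2 against 10.0 and 8.87 CPM in WT, and at 6.51 and 6.30 against 25.2 and 23.6 CPM at d8, so that the order of the genotypes turned between these stages, with no overlap at either.

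The epithelial genes were the group closest to WT at d8, with a median of -0.996. Of these, 10 of 13 were lower (29% of all tested genes), 2 were higher (31.6%) and 1 did not pass. Dsc2, a desmosomal cadherin, was higher, at 78.7 and 71.7 CPM against 23.6 and 25.7 CPM in WT (1.53 ± 0.225 in log2, edgeR adjusted p = 5.39e-06). Btn1a1 was higher too (0.66 ± 0.129, edgeR adjusted p = 0.000146), at 8.97 and 9.59 CPM against 5.44 and 5.71 CPM, after 15.3 and 16.5 against 26.1 and 22.8 CPM at d2. Perp had 791 and 796 CPM at K36M d4 and 357 and 324 CPM at WT d4, and 414 and 408 against 566 and 544 CPM at d8 (-0.51 ± 0.131, edgeR adjusted p = 0.00194). Podxl, a sialomucin of the cell surface, was at 370.3 and 385 CPM against 590.2 and 624 CPM (-0.76 ± 0.102, edgeR adjusted p = 1.02e-06). Lgals3, which codes for galectin-3, did not pass (-0.04 ± 0.135, edgeR adjusted p = 0.802), with libraries at 155 and 149 CPM in K36M and 150.4 and 147 CPM in WT that overlap. At the other end of the group Krt13, a keratin of stratified epithelium, was at 0.711 and 0.986 against 6.15 and 5.74 CPM, and Avil was at 5.69 and 6.96 against 169 and 157 CPM, both lower in K36M. Markers of simple epithelium, none of them in the set, went the other way. At K36M d8 23 of 26 were higher (31.6% of all tested genes) and 1 was lower (29%). Cd109 was at 397 and 374 against 906 and 987 CPM (-1.37 ± 0.169, edgeR adjusted p = 2.89e-07). Of the genes in no group 14 of 16 were lower. Prr18 was higher (0.74 ± 0.163, edgeR adjusted p = 0.000412), and Pdzd2 did not pass (0.33 ± 0.166, edgeR adjusted p = 0.0902).

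In iPSCs the median level of the genes was low in both genotypes, at 1.10 and 0.998 CPM in WT and 1.09 and 1.45 CPM in K36M. Against K36M d2 all 103 were lower in K36M iPSCs (32.7% of all tested genes) and none was higher (36.5%), also at an unadjusted p below 0.05 and by DESeq2. Against K36M d8 75 were lower (24.5%) and 8 were higher (27.1%). Aldh3a1 was at 0.628 and 0.614 CPM in K36M iPSCs (-6.43 ± 0.242 against d8 in log2), Adh7 at 0.0571 and 0.446 CPM from 9 counts (-6.42 ± 0.398) and Btn1a1 at 0.114 and 0.223 CPM from 6 counts (-5.69 ± 0.251). Higher were Mndal (2.32 ± 0.620, with 10 counts at K36M d8), Mef2c (2.28 ± 0.597, with 7), Igfbp3 (1.18 ± 0.115), Gpm6b (1.17 ± 0.465), Vat1l, Crabp2, Slc13a5 and St3gal6. These 8 become 5 without K36M d8 replicate 1 and 4 without K36M d8 replicate 2. Mndal lies among near copies, and its count is uncertain. In all, 17 of the 103 genes overlap another gene with at least 1 CPM, and where the counting did not use strand their reads cannot be told apart.

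Markers of some other cell states differed between the genotypes as well. Over all tested genes, 31.6% were higher and 29% lower at K36M d8 than at WT d8. Of 20 fibroblast markers 17 were lower at K36M d8 than at WT d8 and none was higher, and their summed level was 1570.2 and 1572 CPM in K36M against 11548 and 11169.5 CPM in WT, with all 20 detected in both groups. Of 24 pluripotency markers tested 23 were higher at K36M d8 and none was lower, with a summed level of 3316 and 3362 CPM against 1106 and 1163 CPM. In WT d8 1 of the 25 listed pluripotency markers, Rex2, had no count. At d2 the summed fibroblast level was already 7407 and 7404 CPM in K36M against 13342 and 13323 CPM in WT, and the pluripotency level 716 and 720.1 against 286 and 309 CPM, at a stage where the median difference of the 103 genes was -0.03. Macrophage markers were low, at 139.8 and 132 CPM in K36M d8 and 176 and 168 CPM in WT d8 over 17 detected genes. Of 16 tested, 9 were lower and 2 higher in K36M. C1qa, C1qc, Ctss and Tyrobp had 0 counts in K36M d8 but not in WT d8, and Lyz1 had 0 counts in both. Tyrobp had 0 counts in K36M d2 as well. Of the 18 keratinocyte markers tested 7 were higher and 4 lower at K36M d8, and Perp is the only keratinocyte marker in the set. Of the 16 neuron markers tested 6 were higher and 4 lower, and Nefm and Syt1 are in the set. The keratinocyte and neuron counts are near the shares of all genes, and nothing is read from them. The part of these cell states in the course of the 103 genes was not tested.

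Outside the set, the WT course over the 7 stages was most alike in Nsun3 (Pearson r = 0.996 with the mean profile of the 103 genes, on log2 values), Aebp2 (0.996), Ercc4 (0.995), Rnpc3 (0.995) and Ugt1a6b (0.995), out of 12520 genes. Likeness of shape says nothing of size: Aebp2, a Polycomb cofactor, had a ratio of only 1.87 by the rule. The 103 genes lay on all chromosomes but Y, with at most 14 on chromosome 11, and close neighbours were few. Prss35 and Snap91 lie 9.3 kb apart on chromosome 9, and Pitpnm3 and Slc13a5 106.2 kb apart on chromosome 11.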

How the data were processed

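Reads were aligned and counted by the authors with STAR 2.5.0 and HTSeq 0.11.2 on mm9, per the submitters' processing notes, and the deposited values are raw counts per gene. The sources used here do not give the annotation, the strand setting or the treatment of reads with several matches. Per the labels' protocols, libraries were poly(A) selected, made with a directional kit and sequenced on a HiSeq. All 28 columns were used. Columns of iPSC and noOKSM libraries were matched to samples by library number.

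CPM were computed from the deposited counts and column totals. Tests used edgeR 4.0.16 in R 4.3.3 (TMM, filterByExpr, quasi-likelihood fit of all 14 groups, 14 residual degrees of freedom), on 16932 genes, with Benjamini-Hochberg adjustment and a threshold of 0.05. Log2 fold changes are given ± an approximate standard error. It is the size of the change divided by the square root of the test's F statistic. It can be too small where a group has few counts. All 103 genes passed the filter. The script was tested on simulated data. Gene positions are from GENCODE vM1 and promoter windows from RefSeq. Counting error is relatively smallest for high genes.

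The genes and all lists were chosen with earlier results of these data known, and functional groups were assigned after values were seen. Genes named with values are those with the largest ratio or level, the largest changes of each comparison and those in the marker lists. Others named as extremes or exceptions of their group were chosen after their values were seen. Alternatives were DESeq2 1.42.0, other scaling, no filter, a replicate block, the compared libraries alone, other limits of the rule and each library left out.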

Additional observations from a re-analysis of the deposited data

Results flagged for a closer look

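From d2 to d8, 34 of the 103 genes were higher in both WT libraries and lower in both K36M libraries, which held for 9.96% of the 12623 genes with at least 5 CPM in a group, so that every library of one genotype moved one way and every library of the other the opposite way. The log2 change from d2 to d8 in K36M minus that in WT was -5.97 for Rgs8, -5.74 for Shisa3, -5.56 for Gpm6b and -4.84 for Sost, on the log2(CPM + 0.5) scale. This difference was not tested, because the WT d2 libraries took part in choosing the genes.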

How the results depend on the processing

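Of the 242 recomputed counts of genes, 231 stayed within 1.5 times the value reported and 11 did not. Genes lower at K36M d4 than at d0 (2) became 1 with library totals and no TMM factor, an alternative chosen after seeing the data, and 6 when only the 4 libraries compared were fitted, with a range of 1 to 2 over single libraries left out. Genes lower at K36M d6 than at d0 (18) became 10 under both of those settings. Genes higher in K36M iPSCs than at K36M d8 (8) ranged from 4 to 7 with single libraries left out. With a fold limit of 8, the rule kept 42 genes in WT and 15 in K36M. In K36M a limit of 3 kept 70, and requiring d8 as well kept 28. The cause was not tested. Of single-gene results, 759 stayed on their side of the threshold, 22 lost the call and 9 gained it. None of those that passed changed direction, and direction was not compared for those that did not pass. Dropping TMM moved the median of all genes by 0.29 in log2 for K36M d2 against d0 and by 0.41 for d8 against d0. With the replicate number as a block, 96 genes were lower and 4 higher at K36M d8 than at WT d8, and the block changed no other count of calls. Deviations of same-numbered libraries correlated between -0.0987 and 0.138 in the compared groups, and between -0.463 and 0.456 over all pairs of groups. The numbers were not taken to pair the libraries. Depth limits the genes that rest on few counts.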
